A study of Mus musculus with 5 samples.

Results

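The methionine and folate cycles supply the methyl groups that PRMT1 and other methyltransferases place on proteins, nucleic acids and small molecules. Their transcripts were followed here through 9 genes chosen by symbol (Mat2a, Mat2b, Ahcy, Mtr, Shmt1, Shmt2, Mthfd1, Mthfd2 and Nnmt), out of 24531 genes in the deposited table. These 9 genes hold 12 of its 36779 RefSeq transcripts. All 9 passed the filter on low counts. The RNA was that of epididymal primary adipocytes, taken from C57BL/6N mice after 12 weeks on a high-fat diet in both groups. Prmt1 f/f (3 libraries, f/f) carries floxed Prmt1 and is labelled wild type, and Prmt1 FKO (2 libraries, FKO) is the adipocyte-specific Prmt1 knockout. The sources used here do not give the Cre line, the exons removed, or the age and number of animals.

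In the methionine cycle, methionine adenosyltransferase joins methionine to ATP to form S-adenosylmethionine, the methyl donor. Each methyl transfer leaves S-adenosylhomocysteine, which is split to homocysteine and can be methylated again to methionine with a methyl group carried by folate. The folate cycle takes one-carbon units from serine and runs in the cytosol and in mitochondria with separate enzymes in each compartment. In adipose tissue the pathway is also known for its large consumer Nnmt, which methylates nicotinamide and is abundant in fat.

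Shmt2 was the single gene of the 9 that passed the test between genotypes, and it fell by 0.68 on the log2 scale in FKO. Its cytosolic counterpart Shmt1, together with Mat2b and Mthfd1, lay above every f/f library in CPM in both FKO libraries, and Mtr lay below, but none of these 4 passed the test. In CPM the groups overlapped for Mat2a, Ahcy, Mthfd2 and Nnmt. Of all 14492 genes tested, 25.4% passed the same test (edgeR's quasi-likelihood test, p adjusted after Benjamini and Hochberg to under 0.05), 11.9% as higher and 13.4% as lower, so the 11.1% of the 9 members that passed (0 higher and 1 lower) was not above the background. At an unadjusted p under 0.05, 3 members were higher and 2 lower by edgeR, against 18.6% and 21.5% of all genes. DESeq2 called 2 higher (Mat2b and Mthfd1) and 2 lower (Shmt2 and Mtr), where it called 33.6% of all genes. The limma-voom test called 0 higher and 1 lower, and 23.1% of all genes. In CPM (counts divided by TMM-scaled library size) the groups did not overlap for 5 of the 9, against 59.0% of all genes. The TMM factors were 1.035 to 1.123 in f/f and 0.9004 to 0.9215 in FKO. This scaling therefore raises FKO against f/f, compared with library size alone. For 3 members FKO was the higher group, against 28.6% of all genes, and for 2 the lower, against 30.5%. On the deposited FPKM the balance turned, with FKO wholly higher for 2 (Shmt1 and Mthfd1) against 17.6% of all genes. On that scale FKO was wholly lower for 4 (Mat2a, Ahcy, Mtr and Shmt2) against 43.6%, and Mat2b overlapped.

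The promoter windows of 4 members are shown to compare the gene that passed the test (Shmt2) with its counterpart (Shmt1), with the other gene that lay lower in both FKO libraries (Mtr) and with the most abundant synthesis enzyme (Mat2a). They run from 250 bases before to 50 bases after the gene start, are credited to RefSeq on GRCm38.p6, and lie on the minus strand at chr10:127522395-127522694 for Shmt2, chr11:60811216-60811515 for Shmt1, chr13:12258064-12258363 for Mtr and chr6:72439507-72439806 for Mat2a. Capitals mark a match, on either strand, to any of 6 motifs. The CCAAT box and the GC box, GGGCGG, are common in promoters, and TATAAA is the TATA box. The E-box was spelled CACGTG. The composite element of ATF4 and C/EBP was spelled TGATGNAA. The last motif was the palindromic site of nuclear respiratory factor 1 (NRF1), which makes up all the capitals of the Shmt2 window.
Shmt2: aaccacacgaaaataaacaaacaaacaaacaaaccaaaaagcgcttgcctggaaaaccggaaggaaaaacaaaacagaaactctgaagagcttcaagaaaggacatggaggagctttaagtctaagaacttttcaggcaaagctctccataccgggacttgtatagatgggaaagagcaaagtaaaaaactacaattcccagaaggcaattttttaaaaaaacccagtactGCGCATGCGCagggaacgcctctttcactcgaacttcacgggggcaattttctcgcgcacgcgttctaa
Shmt1: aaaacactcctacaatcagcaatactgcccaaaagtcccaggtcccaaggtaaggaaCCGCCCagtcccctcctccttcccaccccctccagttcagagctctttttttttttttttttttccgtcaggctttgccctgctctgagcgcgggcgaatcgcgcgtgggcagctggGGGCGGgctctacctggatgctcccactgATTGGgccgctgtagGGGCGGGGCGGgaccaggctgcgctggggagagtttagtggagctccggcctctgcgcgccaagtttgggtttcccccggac
Mtr: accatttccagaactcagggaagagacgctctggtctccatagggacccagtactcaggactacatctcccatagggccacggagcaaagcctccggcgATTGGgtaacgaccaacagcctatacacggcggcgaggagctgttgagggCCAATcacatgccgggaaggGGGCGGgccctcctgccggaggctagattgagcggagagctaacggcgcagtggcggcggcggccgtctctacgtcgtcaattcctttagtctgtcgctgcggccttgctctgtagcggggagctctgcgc
Mat2a: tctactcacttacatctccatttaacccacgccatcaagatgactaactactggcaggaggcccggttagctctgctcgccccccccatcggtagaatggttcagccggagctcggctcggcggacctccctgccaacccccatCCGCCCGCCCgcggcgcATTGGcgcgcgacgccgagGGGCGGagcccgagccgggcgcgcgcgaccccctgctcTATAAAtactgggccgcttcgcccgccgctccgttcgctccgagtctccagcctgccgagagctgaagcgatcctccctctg
A window was held for 8 of the 9 members. CCAAT was present in 7 of these 8, against 37.4% of all 32851 windows, and GGGCGG in 6 of 8, against 35.7%. Shmt2 had neither. Its window instead held the NRF1 site, found in 0.971% of all windows and in none of the other 7 members' windows, from 19 to 10 bases before the gene start. The Shmt2 window was 42.7% G and C, below the 52.7% to 67.0% of the other members, and the median of all windows was 52.7%. TATAAA stood in the Mat2a window, as in 13.6% of all windows, and overlaps none of its other matches. In the Mat2a and Shmt1 windows 2 GGGCGG matches overlap each other. CACGTG and TGATGNAA had no match in any of the 8 windows, against 7.15% and 3.97% of all windows. The shares of all windows were not matched to the members for expression or for G and C, so they are not a like set. These matches are a description of letters and not of bound factors.

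As levels per transcript length (FPKM), Nnmt and Mat2a stood far above the other 7 members. Nnmt lay between 197 and 276 FPKM and Mat2a between 159 and 266 FPKM over the 5 libraries. Together they made up 86.3%, 84.3% and 86.2% of the summed FPKM of the 9 genes in f/f replicates 1 to 3, and 84.4% and 81.1% in FKO replicates 1 and 2. In f/f their ranges overlapped, and Nnmt was above Mat2a in 4 of the 5 libraries. Both were higher than 97.0% or more of all tested genes in each group's mean FPKM. Mat2b followed at 29.9 to 43.1 FPKM, then Ahcy at 10.4 to 14.0 FPKM and Mthfd1 at 11.2 to 14.0 FPKM, whose f/f ranges overlapped. Ahcy was the higher of the pair in all f/f libraries and Mthfd1 in both FKO libraries. Shmt2 lay at 4.37 to 8.999 FPKM, Mtr at 2.91 to 5.87, Mthfd2 at 3.14 to 4.03 and Shmt1 at 2.83 to 4.25. Mthfd2 and Shmt1 had overlapping ranges in f/f, and Mtr and Mthfd2 had overlapping ranges in FKO. In FKO, Shmt1 ranked above both Mtr and Mthfd2 in each library, whereas in f/f it ranked below Mtr in all 3.

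**Figure D1:**
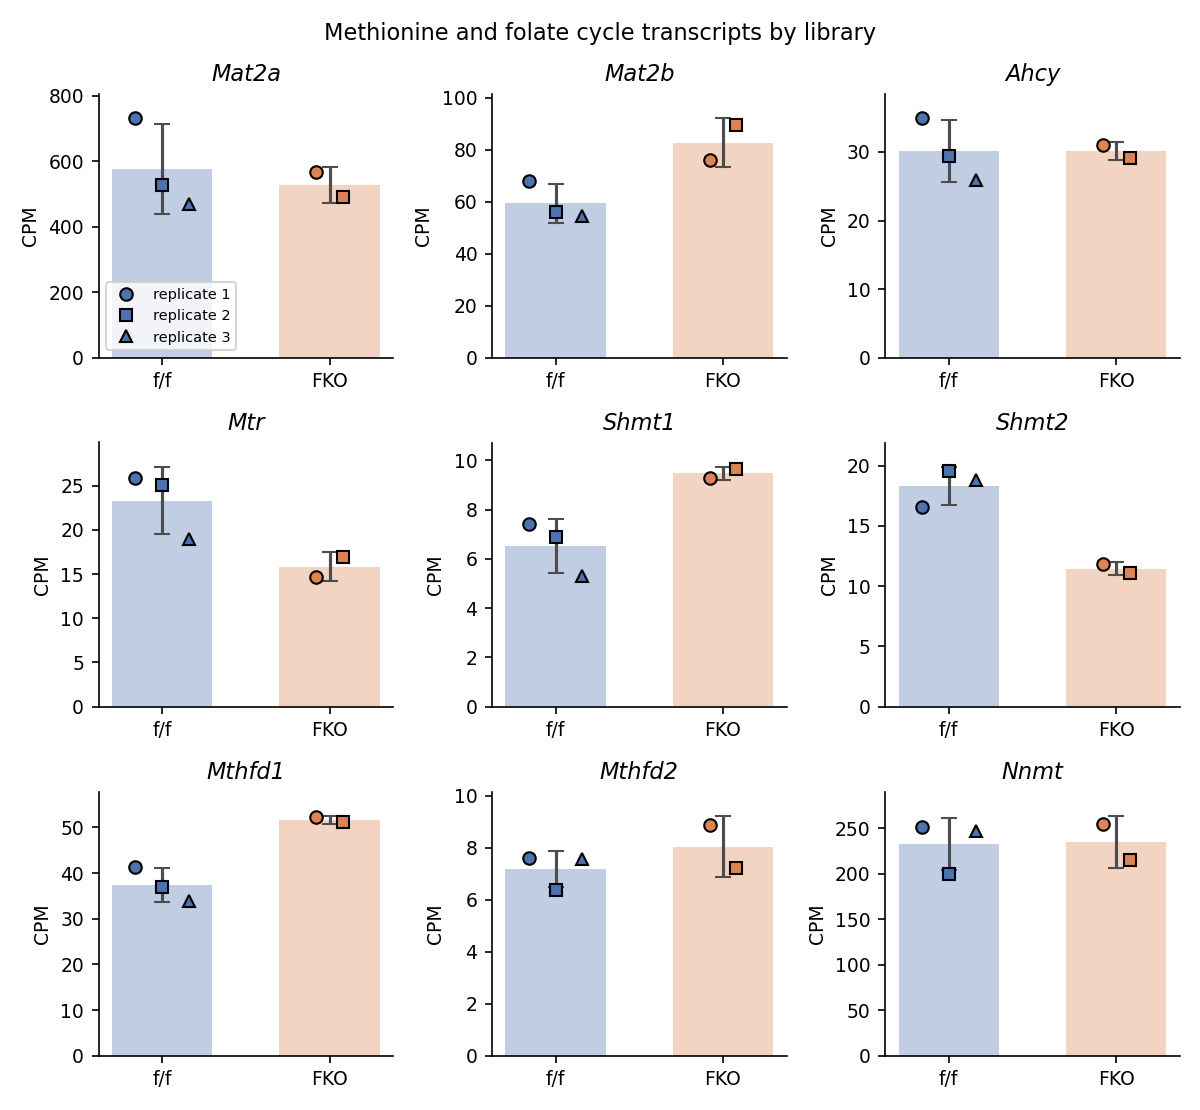
CPM of the 9 genes in each library. Bars are group means from 0, error bars are SD (n = 3 f/f and n = 2 FKO) and points are libraries; FKO libraries lie wholly below f/f for Shmt2 and Mtr and wholly above for Mat2b, Shmt1 and Mthfd1.

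The synthesis of S-adenosylmethionine rests on Mat2a, the catalytic subunit, and Mat2b, its regulatory subunit. Mat2a (gene 232087, mm10 chromosome 6, 72432799 to 72439558) had 732, 528 and 468 CPM in f/f replicates 1 to 3 and 568 and 490 CPM in FKO replicates 1 and 2. The groups overlapped in CPM, with f/f replicate 1 above all others, and not in FPKM, where FKO lay below (180 and 159 against 184.5 or more). Its log2 fold change of FKO over f/f was -0.12 (SE 0.22, edgeR adjusted p = 0.709), and without f/f replicate 1 it turned to 0.10 (edgeR adjusted p = 0.67). Mat2b (gene 108645, chromosome 11, 40679314 to 40695203) had 68.0, 55.9 and 54.4 CPM in f/f and 76.1 and 89.4 CPM in FKO. In CPM, though not in FPKM, both FKO libraries lay above all f/f libraries, at a mean of 82.8 ± 9.43 CPM (SD, n = 2) against 59.4 ± 7.45 CPM (SD, n = 3). The log2 fold change was 0.48 (SE 0.16) and did not pass (edgeR adjusted p = 0.0685), though it passed by DESeq2 (adjusted p = 0.0301) and on leaving out f/f replicate 1 (log2 fold change 0.60, edgeR adjusted p = 0.04). The liver enzyme Mat1a had 0 counts in every library.

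The Mat2a locus overlaps Particl, a transcript annotated by GENCODE M21 on the opposite strand, by 876 bases in the table. Particl had 6.85, 6.28 and 2.90 CPM in f/f and 3.25 and 2.50 CPM in FKO (log2 fold change -0.89, SE 0.40, edgeR adjusted p = 0.139). Whether counting used strand is not stated, so reads of the pair may not be separable. Counts of Particl were 105 to 369 per library and those of Mat2a 20609 to 33014.

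Ahcy splits S-adenosylhomocysteine, which otherwise inhibits methyltransferases, and Mtr, methionine synthase, remakes methionine from homocysteine with a methyl group from folate. Ahcy (gene 269378, chromosome 2, 155059312 to 155074497) had 34.95, 29.4 and 26.0 CPM in f/f and 31.1 and 29.2 CPM in FKO. FKO values lay inside the f/f range in CPM and below it in FPKM (10.9 and 10.4 against 11.3 or more), with a log2 fold change of 0.0015 (SE 0.16, edgeR adjusted p = 0.996) whose sign turned in 10 of 15 alternative settings. Mtr (gene 238505, chromosome 13, 12186540 to 12258113) had 25.9, 25.1 and 18.9 CPM in f/f and 14.7 and 17.0 CPM in FKO. The groups did not overlap, with means of 23.3 ± 3.80 CPM (SD, n = 3) and 15.8 ± 1.60 CPM (SD, n = 2). Its log2 fold change was -0.56 (SE 0.18, edgeR adjusted p = 0.0655), short of the threshold, but it passed in 8 of the 15 alternatives, among them upper-quartile factors (-0.68, adjusted p = 0.0301), library size alone (-0.77, adjusted p = 0.018), the edgeR fit without f/f replicate 3 (-0.69, adjusted p = 0.0238) and DESeq2 (-0.54, adjusted p = 0.0435). Without either FKO library its edgeR adjusted p was 0.351 and 0.185.

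The serine hydroxymethyltransferases move a one-carbon unit from serine to folate, Shmt1 in the cytosol and Shmt2 in mitochondria. Shmt2 (gene 108037, chromosome 10, 127517123 to 127522444) had 16.6, 19.6 and 18.8 CPM in f/f and 11.8 and 11.1 CPM in FKO. Each FKO library was below each f/f library, with means of 11.5 ± 0.53 CPM (SD, n = 2) and 18.3 ± 1.57 CPM (SD, n = 3). The log2 fold change was -0.68 (SE 0.15, edgeR adjusted p = 0.0198), or -0.63 after subtracting the median of all genes. Its call ended without FKO replicate 1 (-0.73, edgeR adjusted p = 0.132) or FKO replicate 2 (-0.63, edgeR adjusted p = 0.157), each of which leaves 1 library in that group, and it was kept in the other 13 alternatives. Shmt2 shares 34 bases with Ndufa4l2, on the opposite strand, and Ndufa4l2 had 1.86, 3.06 and 4.89 CPM in f/f and 1.49 and 1.85 CPM in FKO (edgeR adjusted p = 0.14).

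Shmt1 (gene 20425, chromosome 11, 60788897 to 60811265) had 7.41, 6.87 and 5.29 CPM in f/f and 9.29 and 9.65 CPM in FKO. Both FKO libraries stood above all f/f libraries, with means of 9.47 ± 0.25 CPM (SD, n = 2) and 6.52 ± 1.10 CPM (SD, n = 3). The log2 fold change was 0.54 (SE 0.20), and the test was not passed (edgeR adjusted p = 0.0939), nor in any of the 15 alternatives (adjusted p from 0.0607 to 0.331).

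The ratio of Shmt2 to Shmt1 within a library compares the 2 enzymes without any scaling between libraries. As FPKM it was 2.01, 2.56 and 3.18 in f/f replicates 1 to 3 and 1.14 and 1.03 in FKO replicates 1 and 2. All f/f ratios lay above both FKO ratios, a difference of -1.23 on the log2 scale (exact permutation test over samples, two-sided p = 0.1, the smallest that 3 against 2 samples allow). Leaving out 1 library at a time gave -1.40 to -1.07. The mitochondrial transcript was thus about level with the cytosolic one in FKO and above it in f/f.

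**Figure D2:**
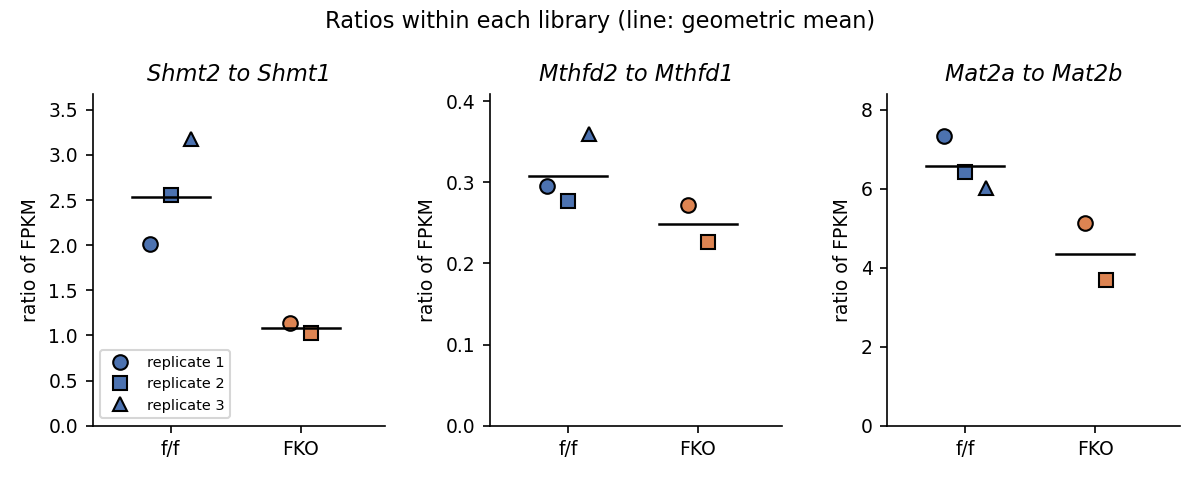
Ratios of FPKM within each library for 3 pairs of genes. Points are libraries and lines are geometric means of 3 f/f and 2 FKO libraries; the axes start at 0, and the Shmt2 to Shmt1 ratio of 2.01 to 3.18 in f/f stands above 1.03 to 1.14 in FKO.

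Mthfd1 is the trifunctional cytosolic folate enzyme, and Mthfd2 is the mitochondrial dehydrogenase and cyclohydrolase that is usually high in growing cells. Mthfd1 (gene 108156, chromosome 12, 76255232 to 76319820) had 41.3, 37.0 and 33.8 CPM in f/f and 52.2 and 51.1 CPM in FKO. The groups did not overlap, with means of 37.4 ± 3.76 CPM (SD, n = 3) and 51.7 ± 0.82 CPM (SD, n = 2). Its log2 fold change of 0.47 (SE 0.14) lay just short of the threshold (edgeR adjusted p = 0.0513). It passed with RLE factors (0.48, edgeR adjusted p = 0.047), on leaving out f/f replicate 1 (0.56, edgeR adjusted p = 0.0362) and by DESeq2 (0.48, adjusted p = 0.015), and not in the other 12 alternatives. Mthfd2 (gene 17768, chromosome 6, 83305704 to 83317604) had 7.61, 6.38 and 7.57 CPM in f/f and 8.87 and 7.20 CPM in FKO, with overlapping groups. The log2 fold change was 0.16 (SE 0.19, edgeR adjusted p = 0.572), and it was below 0 on the FPKM scales and when scaled by library size alone (-0.068). The Mthfd2 to Mthfd1 ratio of FPKM was 0.295, 0.277 and 0.359 in f/f against 0.272 and 0.226 in FKO, a difference of -0.31 on the log2 scale (exact permutation two-sided p = 0.2). It was -0.20 without f/f replicate 3 and -0.18 without FKO replicate 2, and reached -0.45 without FKO replicate 1. The Mat2a to Mat2b ratio was 7.33, 6.42 and 6.03 in f/f against 5.12 and 3.69 in FKO, a difference of -0.60 on the log2 scale (exact permutation two-sided p = 0.1). Leaving out FKO replicate 2 gave -0.36, and leaving out FKO replicate 1 gave -0.83. Adjusted over the 3 ratios compared (Benjamini-Hochberg), the exact permutation p-values were 0.15, 0.2 and 0.15 for the Shmt, Mthfd and Mat pairs.

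Nnmt consumes S-adenosylmethionine to methylate nicotinamide. Nnmt (gene 18113, chromosome 9, 48591877 to 48605123) had 251.3, 199.7 and 246.6 CPM in f/f and 255 and 215 CPM in FKO. The groups overlapped, and the spread within each group (SD 28.5 CPM in f/f, n = 3, and 28.6 in FKO, n = 2) was larger than the distance between the means of 233 and 235 CPM. Its log2 fold change was 0.016 (SE 0.17, edgeR adjusted p = 0.956), with a sign that turned in 7 of 15 alternatives and a range from -0.21 to 0.14.

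**Figure D3:**
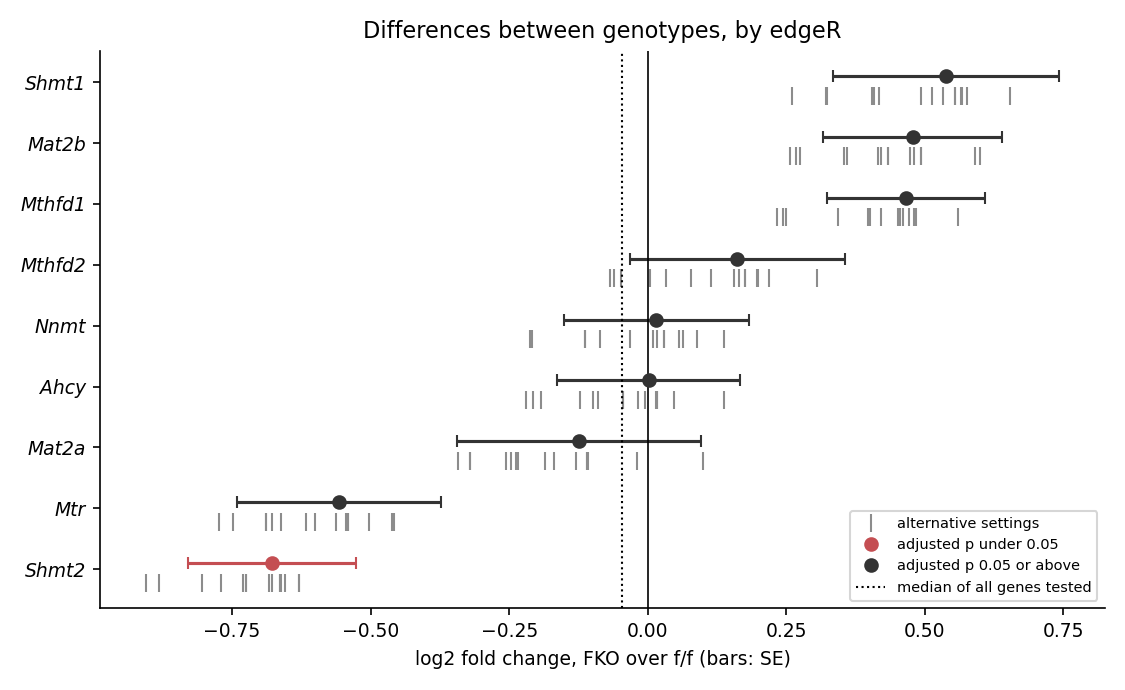
Log2 fold changes of FKO over f/f from edgeR (points, with SE as bars) and under each of 15 alternatives (ticks). Shmt2 at -0.68 is the single red point (adjusted p under 0.05); Shmt1, Mat2b and Mthfd1 stay above 0 and Shmt2 and Mtr below 0 in every alternative, and the dotted line is the median of all genes at -0.047.

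The median log2 fold change of the 9 genes was 0.016, against -0.047 for all genes tested. With upper-quartile factors the 2 medians were -0.11 and -0.17, and with library size alone -0.21 and -0.27, so the members' median was 0.060 above that of all genes under both. It was below that of all genes with the stricter filter (a difference of -0.006) and on log2(FPKM + 1) (-0.047), and 0.014 to 0.194 above with libraries left out in turn. Of all called genes 47.1% were higher in the main test, against 1299 higher and 2415 lower with upper-quartile factors and 26.1% higher with library size alone. On log2 FPKM the share was 26.9% with a pseudocount of 0.1 and 28.8% with 1, and the former moved the median of all genes to -0.24. In the simulated comparison of FKO with f/f on 14197 genes, this test recovered 4.48% of 67 genes changed 1.5-fold and 34.3% of 67 changed 2-fold. Beside these only 65 more were changed there (4-fold), whereas 25.4% of all genes were called here. The Benjamini-Hochberg cut was therefore stricter in the simulation, and these shares are not the test's recovery in these data. The 4 members that did not overlap in CPM and did not pass differed by 1.38-fold to 1.47-fold, so a p short of the threshold does not show that their levels were alike.

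Of the 9 genes, 3 have 2 RefSeq transcripts each (Mat2b, Shmt2 and Nnmt), and none of them passed the test of transcript use between genotypes. Shmt2 transcript variant 1 made up 75.8%, 81.9% and 79.8% of the gene's FPKM in f/f and 77.7% and 74.0% in FKO (edgeR diffSpliceDGE adjusted p = 0.893). Both Shmt2 transcripts were lower in FKO, variant 1 at 5.54, 7.10 and 7.18 FPKM in f/f against 3.54 and 3.23, and variant 2 at 1.77, 1.57 and 1.82 FPKM in f/f against 1.01 and 1.14. Nnmt variant 1 made up 80.5%, 80.9% and 79.4% in f/f against 84.8% and 84.2% in FKO, without overlap (diffSpliceDGE adjusted p = 0.42). Mat2b variant 1 made up 74.1%, 76.4% and 45.5% in f/f against 65.3% and 84.0% in FKO (diffSpliceDGE adjusted p = 0.728), with f/f replicate 3 apart from the other 4 libraries. No unadjusted p of the 3 was under 0.05, the lowest being 0.123 for Nnmt. Across 3997 genes with transcripts to compare, 5.43% passed this test, and no other tool was run for it.

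Prmt1 itself, the check of the labels, had 34.2, 29.4 and 32.3 CPM in f/f and 21.0 and 19.4 CPM in FKO (log2 fold change -0.66, SE 0.14, edgeR adjusted p = 0.0171). Its call ended without either FKO library (log2 fold changes -0.72 and -0.60). The fold of FKO over f/f was 0.632, and Prmt1 ranked 1842 by p of 14492 genes tested. A drop of this size is therefore a weak check of the labels. Total estimated counts were 43580154 to 57016997 per library. Separate animals are not named for the libraries, and every p-value here therefore reflects only library-to-library spread, which may be technical. The adipocyte identity of the RNA was checked with 12 markers such as Adipoq and Plin1. These summed to 40000 to 48310 CPM in f/f and 58390 to 65290 CPM in FKO, with 4 of 12 higher and 0 lower. Of all genes tested, 11.9% were called higher and 13.4% lower. In the same comparison 10 of 12 macrophage markers were lower and 0 higher, summing to 1039 to 1876 CPM in f/f and 443 to 573 in FKO, with none of the 12 at 0 in every library. All 10 mesothelial markers tested were lower (57.5 to 120 CPM in f/f, 17.6 to 27.3 in FKO), as were 5 of 12 progenitor and fibroblast markers (793 to 1228 CPM in f/f, 414 to 434 in FKO). Endothelial, lymphocyte and cycling cell markers had 0 called of 10, 5 and 12 tested by edgeR, and cycling cell markers summed to 79.3 to 117 CPM in f/f and 85.8 to 89.8 in FKO. The macrophage, mesothelial and part of the progenitor and fibroblast markers were lower beside the lower Shmt2, while adipocyte markers summed higher. The part of these shifts in the Shmt2 difference was not tested. In bulk RNA, fewer cells of a type and less RNA per cell cannot be told apart.

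Genes around the 2 cycles were grouped into 8 lists of other enzymes and carriers, of which 141 genes were tested, and 24 were higher and 18 lower in FKO, 29.8% against the background of 25.4%. The 18 lower include Prmt1, the knocked-out gene. The lists were chosen with earlier results of these data known, so their share is not independent of the data. The number called was 35 with the replicate number as a block, 38 with library size alone, 34 on log2(FPKM + 1) and 55 by DESeq2. The lists' median log2 fold changes lay between -0.048 and 0.26. Without FKO replicate 1 or 2 the number called over the lists was 11 and 13. Of 24 genes with the smallest p in their lists, 11 kept the call in every alternative in which they were tested, and none turned in sign.

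Among 23 other folate genes tested, 2 were higher and 4 lower (median log2 fold change -0.048), where 25.4% of all genes passed. Gldc, which decarboxylates glycine in mitochondria, had 1.49, 0.782 and 1.22 CPM in f/f and 14.4 and 13.3 CPM in FKO. It was 12.0-fold higher in FKO (log2 fold change 3.58, SE 0.29, edgeR adjusted p = 0.00108). Ftcd, called lower, had a larger log2 fold change (-6.65, edgeR adjusted p = 0.0254) but lay near the floor. It had 0.200, 0.357 and 0.172 CPM in f/f and 0 in both FKO libraries. Amt and Gcsh, which act with Gldc to load folate from glycine, were not called. Their log2 fold changes were -0.53 (edgeR adjusted p = 0.488) and 0.066 (edgeR adjusted p = 0.764), with Amt at 0.618 to 1.97 CPM. Aldh1l1, which oxidises 10-formyltetrahydrofolate in the cytosol, rose 1.52-fold from a mean of 234 CPM (edgeR adjusted p = 0.0249), a call that ended in 6 of 15 alternatives, among them without FKO replicate 1 (0.126) or 2 (0.2). Folr2, a folate receptor known from macrophages, fell 3.87-fold (edgeR adjusted p = 0.00237), beside the lower macrophage markers.

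Homocysteine leaves the methionine cycle through transsulfuration, whose first enzyme is Cbs. Cbs had 10.1, 15.4 and 8.28 CPM in f/f and 1.07 and 0.665 CPM in FKO. It fell 12.9-fold (log2 fold change -3.69, SE 0.38, edgeR adjusted p = 0.00194) and kept the call in all 14 alternatives in which it was tested. Of 12 genes of transsulfuration and cysteine use, 3 were higher and 1 lower, where 25.4% of all genes passed. The glutathione synthesis genes Gclm and Gss rose 4.96-fold and 3.13-fold (edgeR adjusted p = 0.00204 for both). Of 16 other genes of the methionine cycle, salvage and polyamines, 2 were higher and 1 lower, against the same 25.4%. With upper-quartile factors the balance was 1 higher and 2 lower, and with library size alone and both FPKM scales 0 higher and 2 lower. Mtap, which starts methionine salvage, rose from 34.3 to 51.8 CPM (edgeR adjusted p = 0.022), and Odc1, which makes putrescine, fell from 236 to 158 CPM (edgeR adjusted p = 0.0337). Both calls ended without FKO replicate 1 (0.097 and 0.209) or 2 (0.204 and 0.207), that of Odc1 also without f/f replicate 1 (0.0593) and with the replicate number as a block (0.0697). That of Mtap also ended on both FPKM scales (0.083 and 0.0868) and for library size alone (0.0869).

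**Figure D4:**
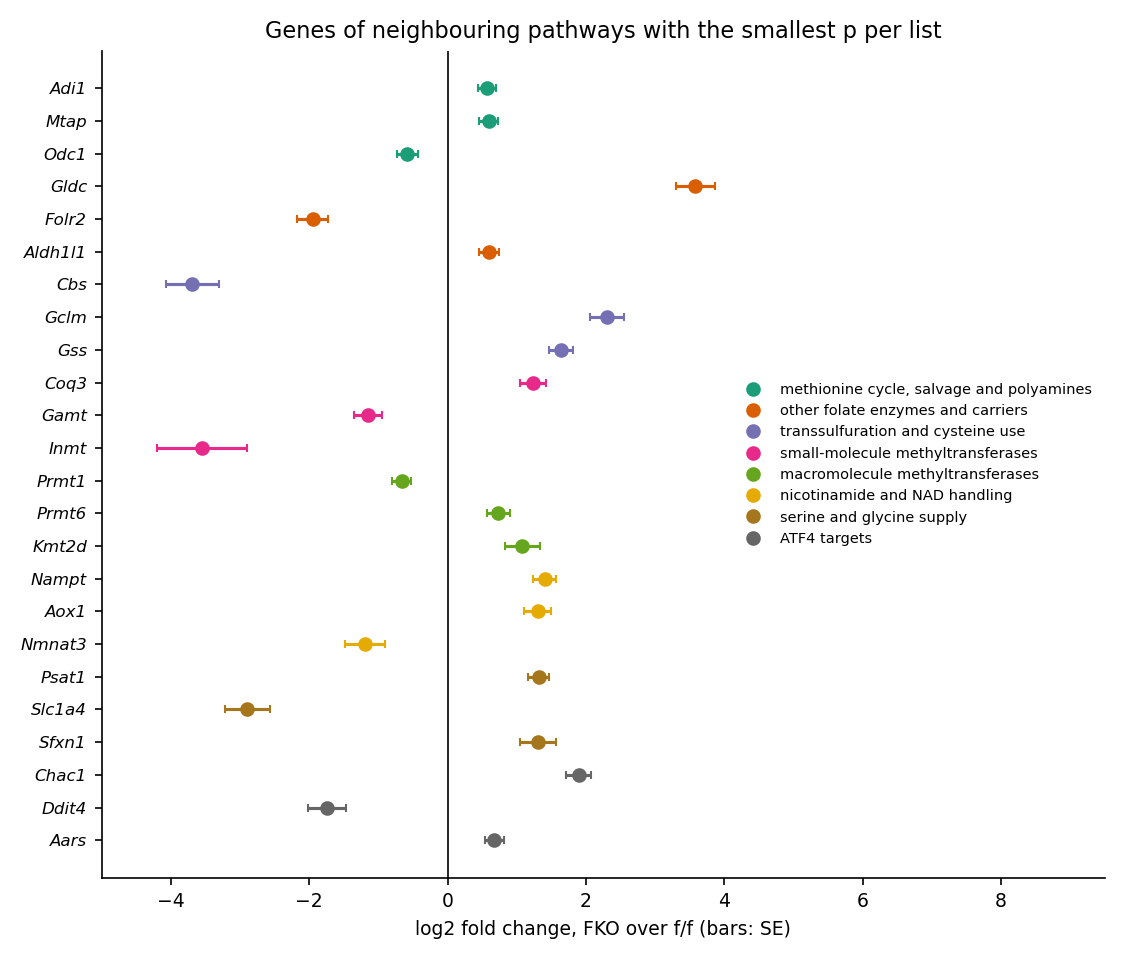
Log2 fold changes of FKO over f/f (points, with SE as bars) for the 3 genes with the smallest edgeR p in each of 8 lists, coloured by list. They run from -3.69 for Cbs to 3.58 for Gldc, and 11 of the 24 kept their call in every alternative in which they were tested.

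Of 42 methyltransferases tested in 2 lists, which consume S-adenosylmethionine, 6 were higher and 3 lower, 21.4% against the background of 25.4%. The 3 lower include Prmt1, the gene knocked out in FKO by design. Of 13 small-molecule methyltransferases tested, 3 were higher and 2 lower, or 1 and 2 with upper-quartile factors or library size alone. Coq3, an O-methyltransferase of coenzyme Q synthesis, had 28.7, 21.4 and 20.5 CPM in f/f and rose to 51.1 and 59.8 CPM in FKO (edgeR adjusted p = 0.0056). Gamt, which makes creatine, had 34.4, 49.5 and 35.7 CPM in f/f and 19.4 and 16.6 in FKO (edgeR adjusted p = 0.00968). It shares 2862 bases with Bc1 in the table, and its call ended without FKO replicate 1 (0.0576) or 2 (0.0849). Inmt, also lower, had 15.5, 14.3 and 52.0 CPM in f/f and 2.33 and 2.35 CPM in FKO (edgeR adjusted p = 0.0107), with f/f replicate 3 apart. The call of Inmt also ended without FKO replicate 1 or 2. Of 29 methyltransferases of proteins, DNA and RNA tested, 3 were higher and 1, Prmt1, was lower. The balance turned to 0 higher and 3 lower on log2(FPKM + 0.1) and for library size alone, and DESeq2 called 9 higher and 2 lower.

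Around Nnmt, 18 genes of nicotinamide and NAD handling were tested, and 3 were higher and 4 lower. Of all genes tested, 11.9% were higher and 13.4% lower. Nampt, which returns nicotinamide to NAD and so uses the substrate of Nnmt, had 143, 127 and 104 CPM in f/f and 328 and 334 CPM in FKO, 2.65-fold higher (edgeR adjusted p = 0.00285). Nampt shares 2793 bases with Gdap10 in the table. Aox1, an aldehyde oxidase that oxidises the product of Nnmt, had 222, 227 and 165 CPM in f/f and 454 and 556 CPM in FKO, 2.47-fold higher (edgeR adjusted p = 0.0052). Both kept the call in all 15 alternatives, whereas Nnmt had no call in any of them; the difference between Nnmt and these genes was not tested.

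Serine, the one-carbon source for Shmt1 and Shmt2, is made by Phgdh, Psat1 and Psph. Of 12 genes of serine and glycine supply 4 were higher and 2 lower, against 11.9% and 13.4% of all genes. Psat1 had 247, 249 and 211 CPM in f/f and 588 and 585 CPM in FKO, 2.49-fold higher (edgeR adjusted p = 0.0023). The exchanger Slc1a4 fell 7.42-fold (edgeR adjusted p = 0.00249). Sfxn1 rose 2.47-fold (edgeR adjusted p = 0.0141), a call that ended without FKO replicate 1 or 2. Phgdh (log2 fold change 0.10, edgeR adjusted p = 0.69) and Psph (0.15, edgeR adjusted p = 0.564) were not called. A list of 18 genes for the stress factor ATF4 held Atf4 itself (log2 fold change -0.26, edgeR adjusted p = 0.307) and targets of it. Psat1, Shmt2 and Mthfd2 are also counted to these targets in other cells. Of the 18 genes, 4 were higher and 3 lower, where 25.4% of all genes passed. With library size alone 2 were higher and 4 lower. Chac1, which breaks down glutathione, rose 3.72-fold (edgeR adjusted p = 0.0016), and Ddit4 fell 3.35-fold (edgeR adjusted p = 0.00695), a call that ended without FKO replicate 1 (0.0591).

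The gene whose log2 CPM followed each member most closely over the 5 libraries was sought among 11900 genes of at least 1 CPM, as a description. It was Smyd2 for Shmt2 (Pearson r = 0.99959), Ptgr2 for Mthfd1 (0.99969), Atpaf2 for Shmt1 (0.99935), Ap3s1 for Mat2b (0.99845) and Pask for Mtr (0.99641). For the members whose groups overlapped in CPM it was Ubn2 for Mat2a (0.99844), Ikzf2 for Ahcy (0.99783), Taf8 for Mthfd2 (0.99717) and Fam216a for Nnmt (0.99919). With 5 points and this many genes, values this high are easily met, and the libraries share their genotype split. Smyd2 had 33.3, 40.4 and 38.2 CPM in f/f and 21.5 and 20.2 CPM in FKO, and Ptgr2 had 187, 166 and 153 CPM in f/f and 233 and 227 CPM in FKO.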

How the data were processed

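Poly-A selected RNA from 3 Prmt1 f/f and 2 Prmt1 FKO adipocyte preparations was sequenced as Illumina TruSeq libraries, per the labels' protocols. The submitters' processing notes name mm10, HISAT2 2.1.0, HISAT, Bowtie2 and StringTie 1.3.4d without saying which step each served. Estimated counts were deposited by the authors as whole numbers, 1 per RefSeq transcript and library, with no scaling visible in the values. FPKM were deposited beside them, per the file headers, and divide by length and depth. Groups and replicate numbers came from the titles, and columns were matched through the sample descriptions. The table has 36780 rows, of which 1 names no gene and is empty; 0 columns per sample were unused. Counts and FPKM were summed per gene identifier.

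Genes were tested in R 4.3.3 with edgeR 4.0.16 (quasi-likelihood, genotype only, TMM factors of 0.9004 to 1.123, filterByExpr, Benjamini-Hochberg adjusted p of 0.05). SE is the log2 fold change over the square root of F. The biological coefficient of variation was 23%. Transcript use was tested with diffSpliceDGE on 10759 transcripts. Alternatives used DESeq2 1.42.0, limma 3.58.1 (voom, and log2 of FPKM plus 0.1 or 1), other factors and filters, the replicate number as a block, and each library left out. Library pairs within a group differed beyond sampling noise (median chi-square per gene 3.71 to 15.5). The gene test and the transcript test were tested on simulated data, and 3.26% of calls were false in the simulated comparison of genotypes on 14197 genes.

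The 9 members and all lists were chosen with earlier results of these data known. Besides the members and Prmt1, the naming rule took up to 3 genes with the smallest p per list and, per member, the gene of highest Pearson correlation; not all are described. Sequences came from a RefSeq promoter table, and strands from GENCODE M21. Gene coordinates were taken from the table (mm10). The log2 CPM used for correlations had a prior count of 2.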

Additional observations from a re-analysis of the deposited data

How the results depend on the processing

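Shmt2 stayed below 0 in all 15 alternatives and kept its call in 13. The number of members called higher was 0, and it was 1 with RLE factors, 2 by DESeq2 and 0 to 2 when libraries were left out in turn. The number called lower was 1, and it was 2 with library size alone, upper-quartile factors, the stricter filter, DESeq2 and either FPKM scale, and 0 to 2 when libraries were left out. Leaving out libraries in turn gave 909 to 3449 genes called of all, against 3674, and 11 to 42 over the lists, against 42; without either FKO library the lone sample is assumed to vary like the f/f group. With the replicate number as a block, 2 members were called lower (Shmt2 and Mtr) and 3278 genes in all. Deviations of same-numbered libraries correlated across genes at 0.066 and -0.081 for numbers 1 and 2 (with 2 FKO libraries their deviations mirror each other), and the labels tie no pair together, so the libraries share only a number.

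Signs of small changes turned as follows. Ahcy went to -0.22 for library size alone, -0.12 with upper-quartile factors, -0.004 with no filter, -0.044 with the stricter filter, -0.09 with the replicate block, -0.21 and -0.19 on log2 FPKM with 0.1 and 1 added, and -0.098 to 0.137 with libraries left out. Nnmt went to -0.21 for library size alone, -0.11 with upper-quartile factors, -0.032 with the stricter filter, -0.21 on both FPKM scales, and -0.113 to 0.137 with libraries left out. Mthfd2 went to -0.068 with library size alone and -0.06 and -0.048 on the FPKM scales. Mat2a ranged from -0.256 to 0.1 with libraries left out. The causes were not tested. The 3 ratios of paired genes kept their direction, and no member was called for transcript use, in each alternative run for them.

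With 3 and 2 libraries, changes near 1.5-fold were mostly not recovered in the simulation, in which few genes were changed. In these data some changes of that size passed, such as Aldh1l1 at 1.52-fold (edgeR adjusted p = 0.0249). The test's recovery for the members is therefore not known, and a missing call does not show that levels were alike.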
